A study of Caenorhabditis elegans with 2 samples.

Results

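The proteasome subunit genes of Caenorhabditis elegans were taken as the nuclear protein-coding genes whose symbols consist of pas, pbs, rpt or rpn and a number, and 33 of the 19973 protein-coding genes qualified. Binding of LIN-35, the worm retinoblastoma-like pocket protein, had been mapped by chromatin immunoprecipitation with sequencing (ChIP-seq) in whole L1 larvae, both sexes together. The 2 biological replicates form the only group, so no conditions were contrasted. All animals were of strain YL398, which carries the unc-119(ed3) mutation on chromosome III and the transgene vrIs55, which expresses a LIN-35 fusion with GFP and FLAG tags under the ges-1 promoter, which is active in the gut. The transgene ends in the 3′ UTR of lin-35 and also carries unc-119(+), the rescuing copy. The fusion was therefore expected mainly from gut cells, a limit on these larvae as a model of LIN-35 elsewhere. The labels give the precipitated protein as eGFP-lin-35 in one field and the antibody as lin-35 in another, so whether endogenous LIN-35 was also precipitated is not given. A peak from whole larvae does not tell apart binding in more cells and stronger binding per cell, and the gut origin could not be checked from binding data.

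The proteasome degrades proteins that carry ubiquitin chains. Its core particle is a barrel of alpha rings (pas genes), which gate the entrance, and beta rings (pbs genes), some of which hold the proteolytic sites. Its regulatory particle holds a ring of ATPases (rpt genes), which unfold substrates and thread them into the core, and non-ATPase subunits (rpn genes), which receive, deubiquitinate and position substrates. In worms the transcription factor SKN-1, and in particular its isoform SKN-1A, is known to raise transcription of proteasome genes when proteasome function is impaired. LIN-35 acts in the DREAM complex with E2F and DP proteins, which is known for repressing cell cycle and germline genes.

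Binding at these genes was read from the deposited peak lists on ce11, the assembly also named WBcel235. The reproducible list held 6712 peaks that the authors kept by the irreproducible discovery rate, and relaxed lists held 30000 peaks for both replicates pooled, 30000 for replicate 1 and 26341 for replicate 2. Signal is the authors' own peak score, with no unit, and its size differs between lists. It reached 4595 in replicate 1 and 385.7 in replicate 2, whose peaks were at most 280 bp wide, so ranks within a list (1 for the strongest peak) are set beside it. Read depth is unknown. A gene is called bound here when a reproducible summit lay from 500 bp upstream to 200 bp downstream of one of its annotated starts.

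LIN-35 was bound at most of the proteasome genes, in the core and in the regulatory particle alike. Of the 33 genes 27 were bound (81.8%), against 19.8% of all protein-coding genes. By subunit class, 6 of 7 alpha ring genes, 6 of 7 beta ring genes, 4 of 6 ATPase genes and 11 of 13 non-ATPase genes were bound. That gives 12 of 14 core genes (85.7%) and 15 of 19 regulatory genes (78.9%), a difference described here without a test. The peaks at these genes were also strong within the list. The median signal over the 27 bound genes was 252.7, with a range from 72.4 to 1330, against a median of 141 over all bound protein-coding genes. A peak among the 3356 strongest lay at 25 of the 27 bound genes (92.6%), and a peak among the 1678 strongest at 20 (74.1%). Over all bound protein-coding genes these shares were 64.1% and 40.5%. All 15 bound regulatory genes and 10 of the 12 bound core genes were among the 3356 strongest.

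**Figure D1:**
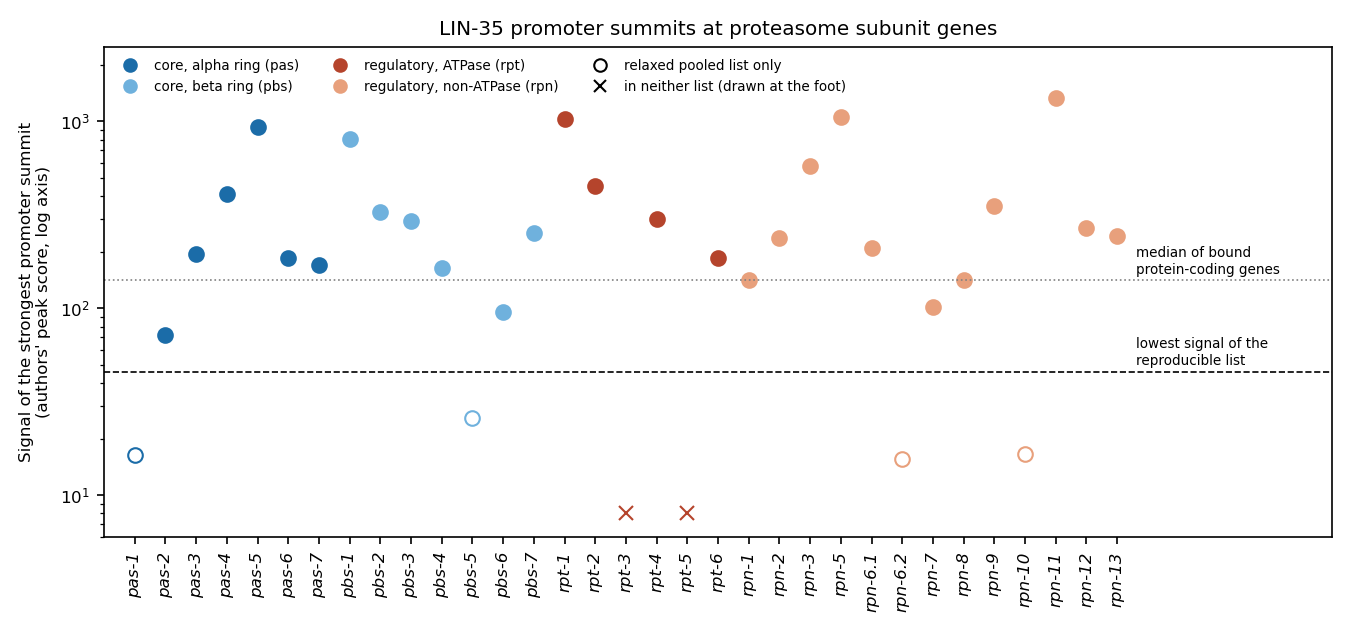
Signal of the strongest promoter summit at each of the 33 genes (log axis, the authors' peak score), coloured by subunit class, with genes found in the relaxed pooled list only drawn as open circles and genes in neither list as crosses at the foot. Filled circles run from 72.4 to 1330, and no gene lies between 25.8 and 72.4, the gap that holds the reproducible list's lowest signal of 45.9.

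The sequence next to the summits held a word that recurred over these promoters. Within 75 bp of the summit, the SKN-1-like words TGTCAT or TATCAT, searched on both strands, occurred at 13 of the 27 bound genes. Of the 3252 reproducible peaks that were the strongest at some protein-coding promoter, 15.9% held such a word. Among these 13 genes were 10 of the 15 bound regulatory genes and 3 of the 12 bound core genes. At 10 of the 13 the site was the longer TTGTCAT, a word picked after the sites had been seen. At the others, rpt-6, rpn-1 and rpn-8, it was TATCAT. The 10 sites share the longer word by selection, so their likeness in it is no result. The 30 bases around each of those 10 sites are printed to show what lies beside the word, with TGTCAT in capitals. Each is given 5′ to 3′ on the strand that reads TGTCAT, from the RefSeq genome of WBcel235 (ce11).
pas-2, chrV:10770245-10770274, minus strand: acccggtgaaatTGTCATcattcgaactga
pas-6, chrV:5584520-5584549, minus strand: actcgcttatttTGTCATcctttcaaattt
pbs-1, chrIV:1709873-1709902, plus strand: cagaaaaaacatTGTCATcaaatctcaatg
rpt-2, chrV:6017773-6017802, minus strand: gcgcgcttgcatTGTCATcatcaacgctgt
rpt-4, chrII:43775-43804, plus strand: cagaattgaaatTGTCATcgtgtccaacag
rpn-2, chrIII:6198864-6198893, minus strand: tgtggtcagaatTGTCATcctccgcgatgt
rpn-6.1, chrIII:6961307-6961336, minus strand: gctggcgggaatTGTCATcgtcattgtctt
rpn-7, chrIV:9316254-9316283, plus strand: attgcaaaccctTGTCATcatccccgccca
rpn-11, chrII:4044503-4044532, minus strand: gtaccccgcaatTGTCATcctcacaatttt
rpn-12, chrII:11652978-11653007, plus strand: acctgccagaatTGTCATtgtgtcgattta

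The longer word thus recurs in the alpha ring, the beta ring, the ATPase ring and the non-ATPase genes. TTGTCAT lay within 75 bp of the summit at 10 of the 27 bound proteasome genes (37.0%), made up of 3 core and 7 regulatory genes, and at 2.90% of all 3959 bound protein-coding genes. At the bound ribosomal protein genes it was found at 0 of 69, and at the bound nuclear pore genes at 1 of 22. Among other genes of the ubiquitin-proteasome pathway it was found at 5 of 15 bound ones (33.3%). The word was thus not particular to the subunit genes. Because the word was taken from these sites, the share at the proteasome genes is a description only. In the promoter sequence from 250 bases before to 50 after the outermost start, it occurred at 8 of all 33 proteasome genes (24.2%) and at 7.02% of all protein-coding genes. All of these 8 but pbs-6 were among the 10 genes whose sites gave the word, so this window is no independent check. The SKN-1-like words together occurred in that window at 15 of 33 (45.5%), against 32.4% of all protein-coding genes, a smaller contrast than around the summits.

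The sites also lay on 1 side. The side was looked at only after the sites had been seen, so it is a description only. All 13 SKN-1-like sites fell on the side of the summit that faces the proteasome gene, 16.5 to 60.5 bp from the summit and at rpn-11 past the start, whereas 47.8% of the 648 sites at all bound protein-coding genes lay on the gene's side. That share counts sites per gene, so a site near a summit shared by a divergent pair can enter from both genes, on opposite sides. Such pairs draw the share toward an even split. The bound genes of the wider ubiquitin-proteasome list had 8 of 9 such sites (88.9%) on the gene's side. The exception, at rad-23, is the rpn-12 site seen from the other gene. The distance matters for the count. Within 50 bp of the summit only 5 of the 27 genes held a word (pas-2, rpt-2, rpt-4, rpn-2 and rpn-12; 18.5%), beside 10.5% of the 3252 peaks. A match is a description of the letters and not a bound site, and no SKN-1 binding was measured here.

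**Figure D2:**
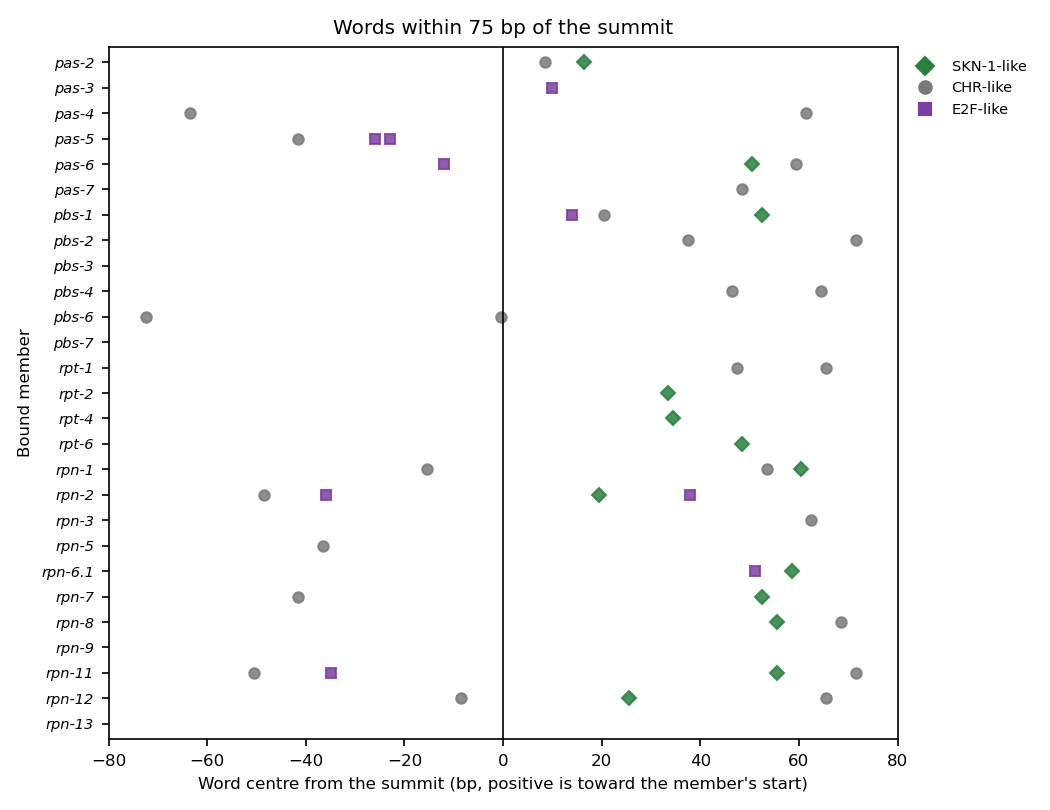
Position of each searched word around the summit at the bound proteasome genes (bp, with the gene's start on the positive side), by word type. All 13 SKN-1-like sites lie on the gene's side at 16.5 to 60.5 bp, while 16 of the 26 CHR-like and 4 of the 9 E2F-like sites do. The side was looked at only after the sites had been seen.

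Words of the DREAM complex were present at part of these peaks. The CHR-like words TTTGAA or TTCGAA, the kind of element that the DREAM subunit LIN-54 binds, lay within 75 bp of the summit at 18 of 27 bound genes (66.7%), against 39.4% of the 3252 peaks. They were found at 9 of 12 core and 9 of 15 regulatory genes. Of the E2F-like words, TTCCCGC and also TTCGCGC were searched, as were TTGCCGC and lastly TTGGCGC. They lay at 7 of 27 (25.9%, against 15.3%), namely pas-3, pas-5, pas-6, pbs-1, rpn-2, rpn-6.1 and rpn-11. The GATA-like word TGATAA, a core of sites for gut GATA factors, lay at 1 of 27 (3.70%, against 19.1%), at rpn-1, where it shares bases with a TATCAT read on the opposite strand. At pbs-1 a CHR-like and an E2F-like word adjoined each other, and these 30 bases are shown for that arrangement, with both words in capitals and TTTGAA first.
pbs-1, chrIV:1709909-1709938, plus strand: aaatgacgTTTGAATTGGCGCtccaccgga

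The windows differed little in base composition, with a median GC content of 39.7% at the bound proteasome genes (33.8% to 47.7%) and 41.1% over the 3252 peaks. With a window of 50 bp the CHR-like words remained at 11 genes (40.7%, against 28.2%), the E2F-like words at 6 (22.2%, against 12.5%) and the GATA-like word at 0 (against 13.9%). In the 300 bases around the outermost start the CHR-like words lay at 29 of all 33 genes (87.9%, against 69.0% of all protein-coding genes) and the E2F-like words at 5 (15.2%, against 9.23%). The GATA-like word lay there at 10 (30.3%), the same share as over all protein-coding genes, so its low share near the summits did not extend to this window.

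Among the alpha ring genes the strongest peak lay at pas-5 (chromosome I, 10565872 to 10566172, between genes), with a reproducible signal of 929.1 at rank 275. Its replicate signals were 904.5 (rank 265) in replicate 1 and 24.9 (rank 1121) in replicate 2. The summit lay 320 bp upstream of the start and served no other protein-coding gene. The next alpha ring peak was at pas-4 (chromosome I, 8728513 to 8728749), with 408.3 in the reproducible list, 384.4 in replicate 1 and 18.3 in replicate 2. This peak sits 141 bp upstream of pas-4, in the 276 bp that separate it from the divergent gene rpb-3, a subunit of RNA polymerase II. The weakest bound gene of all was also an alpha ring gene, pas-2 (chromosome V, 10770071 to 10770414). Its reproducible signal was 72.4 at rank 4505, with 69.7 at rank 4187 in replicate 1 and no promoter summit in replicate 2. The other 3 bound alpha ring genes, pas-3, pas-6 and pas-7, lay between 171.2 and 195.7.

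In the beta ring the strongest peak was at pbs-1 (chromosome IV, 1709796 to 1710095), the counterpart of the yeast and human subunit with caspase-like activity. It had a reproducible signal of 809.8 at rank 340, with 756.6 in replicate 1 at rank 346 and 54.8 in replicate 2 at rank 340. Both replicates thus placed it at almost the same rank. At pbs-2 (chromosome I, 12968480 to 12968723), whose yeast and human counterparts have trypsin-like activity, the signal was 329.2 in the reproducible list and 323.1 in replicate 1 (rank 814). No promoter summit was listed there in replicate 2, so this strong peak rests on 1 replicate. The weakest bound beta ring gene, pbs-6 (chromosome III, 8244092 to 8244435), had 95.8 in the reproducible list, 89.4 in replicate 1 and 7.40 in replicate 2. Its peak fills nearly all of the 352 bp between pbs-6 and the divergent gene cids-1. The summit of pbs-3, with a signal of 295, fell in a 3′ UTR exon of ulp-2, which ends 22 bp before pbs-3 on the same strand. The 2 remaining bound genes, pbs-4 and pbs-7, had 164.9 and 252.7.

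Of the ATPase ring genes, rpt-1 (chromosome V, 11982355 to 11982668, between genes) stood highest, with 1035 in the reproducible list at rank 234. Replicate 1 gave 989.9 (rank 227) and replicate 2 gave 41.2 (rank 529). The other bound ATPase genes were rpt-2 at 453.7, rpt-4 at 300.4 and rpt-6 at 185.6. All 4 lay among the 1678 strongest peaks and kept their peaks in both replicates. The rpt-4 summit lay in an intron of the longest rpt-4 transcript, upstream of the start of a shorter one and beside nfyc-1, a subunit of the transcription factor NF-Y.

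The non-ATPase genes held the strongest and the most distant summits of the family. At rpn-11, the deubiquitinase that removes ubiquitin chains at the entrance of the core, the peak (chromosome II, 4044407 to 4044758) had a reproducible signal of 1330 at rank 154. Replicate 1 gave 1234 (rank 156) and replicate 2 gave 96.2 (rank 131). It was the strongest proteasome gene in every list, and its summit, 27 bp upstream of the start, was the closest of all 27.

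The lid subunit gene rpn-5 (chromosome II, 4698322 to 4698618) had 1059 in the reproducible list, 1011 in replicate 1 and 42.7 in replicate 2, with the summit 43 bp upstream. The same summit lies within the promoter of scc-1, the kleisin subunit of cohesin, whose start is 293 bp from that of rpn-5. At rpn-3, another lid subunit (chromosome III, 8447019 to 8447276), the signal was 575.1 in the reproducible list, 521.3 in replicate 1 and 50.2 in replicate 2, where it ranked 386. This summit is shared with hsp-110, a gene for a chaperone of the heat shock family. The remaining bound non-ATPase genes ran from 102.3 at rpn-7 to 351.3 at rpn-9.

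The paralogs rpn-6.1 and rpn-6.2 differed. The lid gene rpn-6.1, which raises proteasome activity and stress resistance when overexpressed in worms, carried both of its promoter peaks in the reproducible list. The stronger one (chromosome III, 6961277 to 6961455, in an intron) had 210.7 in the reproducible list, 195.8 in replicate 1 and 11.4 in replicate 2, and lay 440 bp upstream of an internal start. The weaker one had 101.4, 90.6 and 10.3 and lay 284 bp upstream of its start, in an intron of the divergent gene F57B9.1. At rpn-6.2 no reproducible summit lay in the window, and the nearest was 13846 bp away. The relaxed lists held weak summits there, with 15.7 in the pooled list, 13.9 in replicate 1 and 3.84 in replicate 2, the last at another position.

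The 6 unbound genes were pas-1, pbs-5, rpt-3, rpt-5, rpn-6.2 and rpn-10. In the relaxed pooled list 31 of the 33 genes had a promoter summit, against 38.3% of all protein-coding genes, and 31 had one in relaxed replicate 1 (38.2% of all) and 27 in relaxed replicate 2 (35.6%). The pooled signals were low at those unbound genes that had one. At pbs-5, whose yeast and human counterparts have chymotrypsin-like activity, the signal was 25.8 in the pooled list and 25.7 in replicate 1. The alpha ring gene pas-1 had 16.4 and 19.3, with the summit 137 bp downstream of the start in a coding exon. The ubiquitin receptor gene rpn-10 had 16.6 and 21.7. None of these 3 had a promoter summit in replicate 2. The ATPase gene rpt-3 had none in any list, and rpt-5 had only one of 2.76 in replicate 2. Between pbs-5 at 25.8 and pas-2 at 72.4 no proteasome gene fell, so none stood close to the list's lowest signal of 45.9.

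The arrangement of the neighbouring gene differed between bound and unbound members. The next gene upstream was taken at any distance. Among members with a divergent one, it ranged from rpoa-49, which overlaps rpt-4, to magu-3, 3538 bp from pbs-4. Where the next gene upstream was transcribed divergently, 22 of 23 proteasome genes were bound (95.7%), against 27.7% of the 8984 such protein-coding genes. Where it lay on the same strand, 5 of 10 were bound, against 13.3% of 10984. The same-strand neighbour was within 150 bp at 5 genes, of which only pbs-3 was bound, while 8.48% of the 1592 such protein-coding genes were. Members were few in each class and no test was made. At pas-1, pbs-5 and rpn-10 a reproducible summit lay near the promoter of the gene just upstream. That summit was 812 bp from pas-1, in the promoter window of the RNA polymerase I subunit gene rpoa-12, with a signal of 185.3. It was 1161 bp from pbs-5, in an intron of K05C4.2, with 103.8, and 1404 bp from rpn-10, between mrpl-9 and the casein kinase gene kin-3, with 161.8. At rpt-3 the nearest summit was 687 bp upstream in a 3′ UTR exon of chtb-2, with 127.9. At rpt-5 it was 505 bp upstream, 5 bp beyond the window, on the side of the divergent gene rad-8, with 107.4.

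A single summit often lay within the promoter windows of 2 genes. Of the 27 bound proteasome genes 18 (66.7%) shared their strongest summit with another protein-coding gene, each time a divergent one. Of all bound genes 35.8% shared it with any such gene and 34.3% with a divergent one. Bound genes of other complexes shared it at 58.0% (ribosomal proteins), 40.9% (nuclear pore), 85.7% (CCT chaperonin) and 30.8% (vacuolar ATPase). Within the proteasome, the share was 8 of 12 for core and 10 of 15 for regulatory genes. Partners included eif-6, a ribosome biogenesis factor (pbs-2), mrps-6, a mitochondrial ribosomal protein (rpn-8), and rad-23, which carries ubiquitinated proteins to the proteasome (rpn-12). The lists do not tell to which gene of such a pair a summit belongs. In an alternative rule each summit was given only to the gene with the nearest start. A limit of 2 kb on either side replaced the promoter window, so more than the sharing changed. Then 7 of the 27 genes lost their summit (pas-2, pas-3, pas-4, pas-7, rpt-2, rpt-4 and rpn-7) and rpt-3 gained one. That left 21 of 33, against 22.6% of all genes. These were 8 of 14 core (57.1%) and 13 of 19 regulatory genes (68.4%), so the core share was the lower one under this rule.

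**Figure D3:**
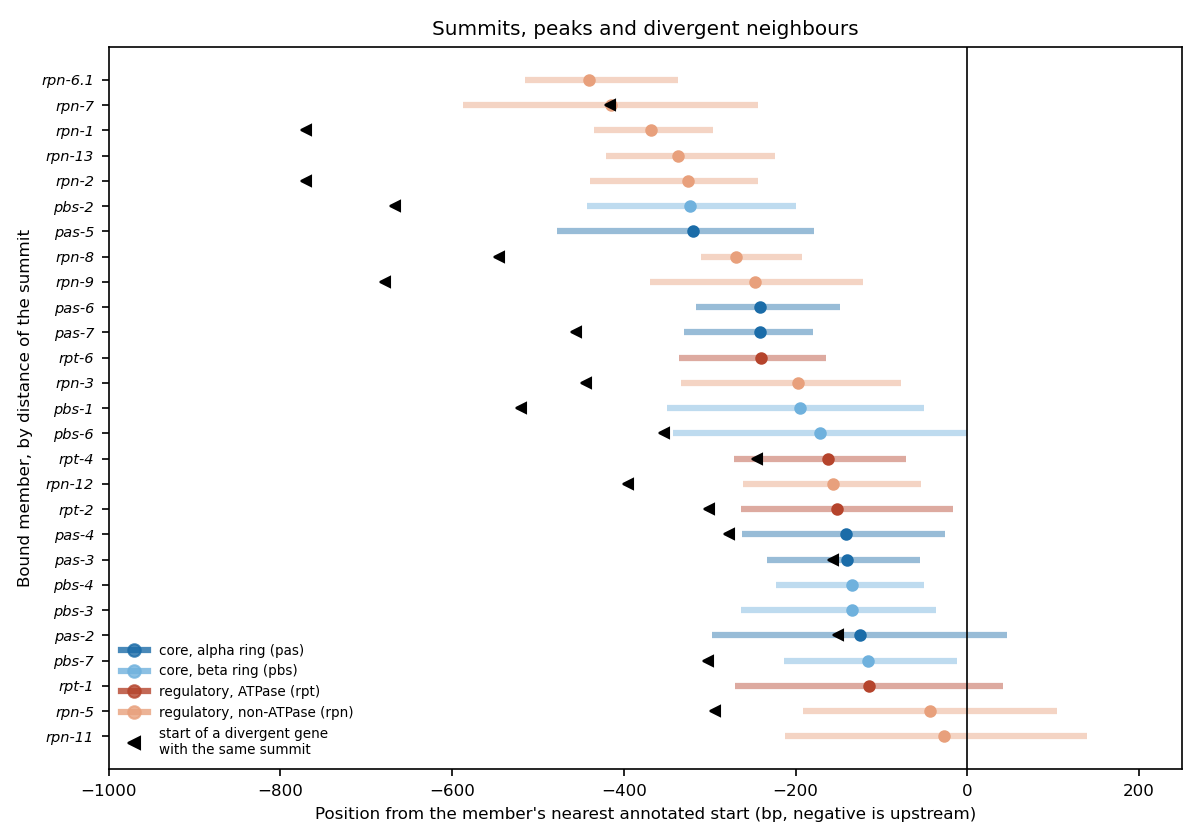
Peaks (bars) and summits (circles) of the 27 bound genes, drawn by distance in bp from the nearest annotated start of the proteasome gene (vertical line at 0), with triangles for the start of a divergent gene that shares the summit. All circles lie upstream, from 27 bp at rpn-11 to 440 bp at rpn-6.1.

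All 27 strongest summits lay upstream of the nearest start, at a median of 195 bp, against 163 bp over all bound protein-coding genes. Most summits of all bound genes were upstream too, with a lower quartile of 77 bp upstream. The median was 190.5 bp for bound nuclear pore genes, 288 bp for ribosomal protein genes and 305 bp for CCT chaperonin genes. The position was thus not particular to the proteasome. Within the proteasome, the median was 156.5 bp for the core genes (116 to 323 bp) and 240 bp for the regulatory genes (27 to 440 bp). Among the latter, the ATPase genes had a median of 157 bp and the non-ATPase genes of 269 bp. The ATPase genes thus had nearly the same median as the core genes, and the non-ATPase genes ranged widest. The peaks had a median width of 229 bp against 340 bp over all bound genes. This was not particular to the proteasome. The medians were 263 bp for bound ribosomal protein, 264.5 bp for nuclear pore, 282 bp for CCT chaperonin and 253 bp for vacuolar ATPase genes. Of the summits 24 lay between protein-coding genes, 2 in introns (rpt-4, rpn-6.1) and 1 in a 3′ UTR exon (pbs-3).

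The position set which genes kept their call in a window of 250 bp on either side of a start. That window left 10 core but only 9 regulatory genes bound, together 57.6%, against 14.2% of all protein-coding genes. The 8 genes lost were pas-5, pbs-2, rpn-1, rpn-2, rpn-6.1, rpn-7, rpn-8 and rpn-13. Of these, the large scaffold subunit gene rpn-1 had 142.3 in the reproducible list, 140 in replicate 1 and 2.49 in replicate 2, with the summit at 368 bp. The other scaffold gene, rpn-2, had 238.7, 206.5 and 27.3 in the same lists, at 325 bp. The ubiquitin receptor gene rpn-13 had 242.7, 222.6 and 16.9, at 337 bp. All but rpn-1 of these 3 were thus also among the strongest peaks of replicate 2. The gene rpn-8, whose product pairs with the rpn-11 deubiquitinase, had 141.2, 134.6 and 6.54, at 269 bp. The lid gene rpn-7 had 102.3, 92.2 and 8.72, at 415 bp, which is 1 bp from the start of the divergent gene F49C12.9. Both overlapped one of the 6712 strongest peaks of replicate 2. A window of 1000 bp upstream added pas-1, rpt-3 and rpt-5, which made 30 of 33, against 24.1% of all.

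**Figure D4:**
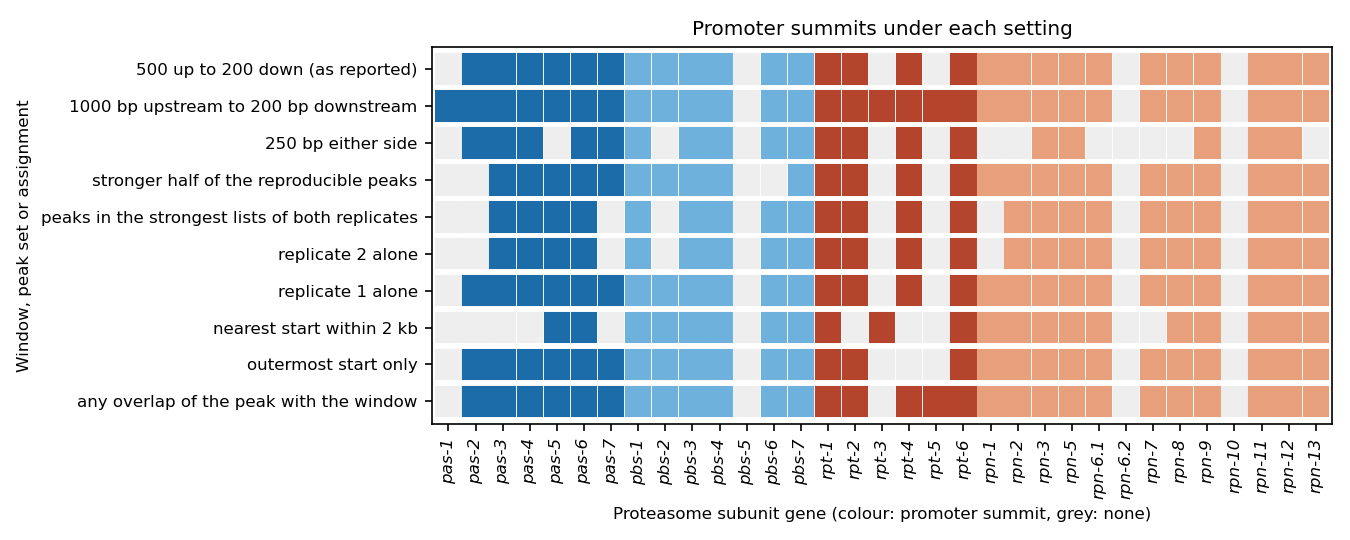
Calls of each of the 33 genes under each setting for the window, the peak set, the replicate and the rule of assignment. Bound counts run from 19 of 33 in the window of 250 bp to 30 of 33 in the window of 1000 bp upstream, and 12 genes were bound under every setting shown. The matching share of all protein-coding genes is not given here.

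The replicate lists disagreed at 3 core genes and 1 regulatory gene. All 27 peaks overlapped one of the 6712 strongest peaks of replicate 1, and 23 overlapped one of the 6712 strongest of replicate 2. Overlap with both was thus found for 85.2% of them, against 73.4% of all bound protein-coding genes. The exceptions were pas-2, pas-7 and pbs-2, which overlapped no replicate 2 peak, and rpn-1, whose replicate 2 signal of 2.49 ranked 20853. With the 6712 strongest peaks of replicate 2 alone, 9 of 14 core (64.3%) and 14 of 19 regulatory genes (73.7%) were bound, against 17.8% of all protein-coding genes. With those of replicate 1 alone the counts were 12 and 15, against 19.8%. Core genes thus had the higher share with replicate 1 and the lower one with replicate 2. Over the 25 bound genes with a promoter summit in both lists, the ranks had a Spearman rho of 0.855, against 0.739 over 3662 bound protein-coding genes. The ranks are of the strongest promoter summit in each list, which need not be the same peak. At pas-7 they lay 241 bp upstream in replicate 1 and 80 bp downstream in replicate 2. These values describe genes and not independent samples, and the peaks come from a list that the authors thresholded on reproducibility, though not each of them overlaps a replicate 2 peak.

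**Figure D5:**
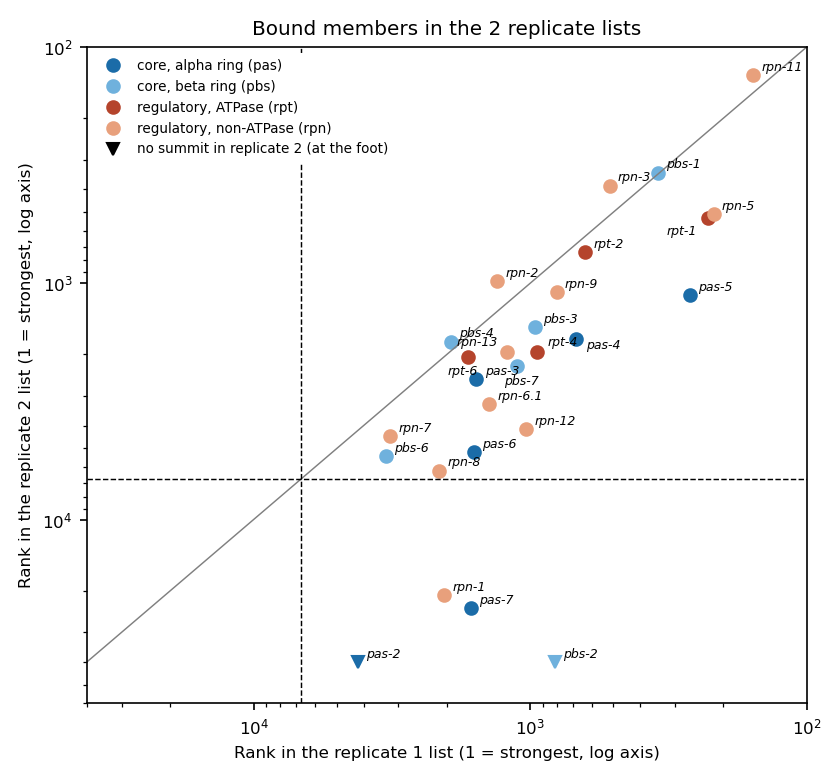
Rank of the strongest promoter summit of each bound gene in the replicate 1 list (x axis) and in the replicate 2 list (y axis), both on log axes with the strongest peaks at the upper right, and dashed lines at rank 6712. All genes lie within the line for replicate 1, while pas-7 and rpn-1 lie below it for replicate 2 and pas-2 and pbs-2, with no summit there, are drawn at the foot. The ranks of pas-7 belong to summits at different positions.

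Other large protein complexes, set beside the proteasome, had shares above and below its 81.8%. Bound were 69 of 78 ribosomal protein genes (88.5%, median signal 474.9), 22 of 26 nuclear pore genes (84.6%, 279.1), 7 of 8 genes of the CCT chaperonin (87.5%, 544) and 13 of 20 genes of the vacuolar ATPase (65.0%, 180.2). The proteasome median of 252.7 lay below the ribosomal, nuclear pore and chaperonin medians and above that of the vacuolar ATPase. The order of the shares depended on the window and the assignment. With 250 bp on either side of a start, 57.6% of proteasome genes were bound, against 19.2% of ribosomal, 61.5% of nuclear pore genes, 2 of 8 chaperonin and 6 of 20 vacuolar ATPase genes. With the nearest start the shares were 63.6%, 56.4%, 65.4%, 12.5% and 65.0% in the same order. Ribosomal and chaperonin genes thus fell from above to below the proteasome genes. Around the summits, SKN-1-like words lay at 3 of the 69 bound ribosomal genes (4.35%) and 1 of the 22 bound nuclear pore genes (4.55%), against 13 of the 27 bound proteasome genes. The other words had no such order. CHR-like words lay at 33.3% of the bound ribosomal and 81.8% of the bound nuclear pore genes, and E2F-like words at 8.70% and 45.5%, on either side of the proteasome shares of 66.7% and 25.9%.

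The list of 25 other ubiquitin-proteasome genes was bound in 15 cases (60.0%), at a median signal of 219.8. The AAA ATPase gene cdc-48.1, whose product extracts ubiquitinated proteins for the proteasome, had the strongest peak of the whole reproducible list, with 4903 in that list and 4595 in replicate 1. Its paralog cdc-48.2 had 67.8. Among factors that bind the proteasome, the deubiquitinase genes usp-14 and ubh-4 had 413.6 and 219.8. The ubiquitin genes ubq-1 and ubq-2 had 177.6 and 437.5, and ubiquitin-activating uba-1 had 92.1. The genes of the SKN-1 pathway divided in the reproducible list. The protease gene ddi-1, which activates SKN-1A, had 71.8, and wdr-23, which inhibits other SKN-1 isoforms, had 201.3. By contrast, skn-1 and png-1, whose product edits SKN-1A, were unbound. Replicate 2 did not give this division for ddi-1 and skn-1. In that list ddi-1 had no promoter summit. The gene skn-1 had one there, with a signal above that of rpn-12, which ranked 4131. The skn-1 summit was thus among the 6712 strongest peaks of replicate 2, though its pooled signal was only 16.9. No list held a promoter summit at png-1. SKN-1-like words lay near the summit at 9 of the 15 bound genes (60.0%, against 14.5% of all bound protein-coding genes). The longer TTGTCAT lay at 5 (33.3%, against 2.90%). Of these sites 1, at rad-23, is the rpn-12 site seen from the other gene.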

How the data were processed

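ChIP-seq of 1 group with 2 biological replicates was analysed from peak lists on ce11. The labels give fragments of 150 to 350 bp. Per the notes deposited with the files, lists came from alignments and a control alignment, and the reproducible list from the pooled and both replicate lists. The signal of each peak is the deposited score of the authors' caller. For the aligner, the caller and the reproducibility cutoff, names and values were not given in the sources used here. Lists on ce10 were not used.

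Members and lists were chosen with earlier results of these data known. Gene models were from Ensembl release 115 without the mitochondrial genome, and every annotated transcript start counted. Genome sequence came from RefSeq, and 99.9% of 16235 plus-strand start codons read ATG in it. Members were described by counts and medians beside all protein-coding genes, with no test. Full values were given for the 4 strongest core and 4 strongest regulatory genes, unbound genes, the 2 weakest bound genes, paralogs and genes whose call changed with the window. A single replicate stood as its 6712 strongest peaks. Percentiles are of signal within a list. The 25 symbols of the pathway list were all found. Alternatives were other windows, peak sets, starts, assignments and word windows. TTGTCAT, and the side of the summit on which a word lies, were added after seeing the data. Assignment was tested on simulated data: 2000 of 2000 planted summits were recovered, and 3959 bound genes equalled those of bedtools 2.31.1. Computation used Python 3.11.15, numpy 2.4.6, scipy 1.17.1 and matplotlib 3.10.9.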

Additional observations from a re-analysis of the deposited data

How the results depend on the processing

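The count of bound proteasome genes lay between 19 and 30 over the settings tried, with 27 as reported, and 12 genes were bound under every one. The share of all protein-coding genes bound under every setting is not given here, so the 12 have no background beside them. Regulatory genes dropped to 9 with 250 bp on either side of a start. The median percentile of signal, 79.4 for bound core and 83.8 for bound regulatory genes, was 83.9 for core genes both with the 3356 strongest peaks and with the nearest start, and 90.6 for regulatory genes in the window of 250 bp. Leaving out a replicate gave 73.7 to 80 for core and 77.4 to 84.6 for regulatory genes. The median distance of 195 bp became 218 bp with 1000 bp upstream, 152 bp in the window of 250 bp, 172 bp with peaks strong in both replicates and 240 bp with the nearest start, and 189 to 197 bp with a replicate left out. Within 50 bp of the summit, CHR-like, GATA-like and SKN-1-like words lay at 11, 0 and 5 genes. In the 300 bases around the start CHR-like and GATA-like words lay at 29 (87.9%, against 69.0% of all genes) and 10 (30.3%, against 30.3%) of all 33. These changes follow from the window, or from which genes count as bound; the cause of the shift between replicates was not tested. With peaks strong in both replicates 23 genes were bound, against 14.6% of all, with the outermost start 26 (18.4%), with any overlap 28 (21.6%) and with the 3356 strongest peaks 25 (12.7%). No paired analysis was possible because there is 1 group. Read depth is unknown, so a missing peak is not shown to be missing binding.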
